A study of Homo sapiens with 9 samples.

Results

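A set of 10 genes that mark cartilage matrix and chondrocyte identity was followed in SW1353, an established line grown from a human chondrosarcoma, a malignant cartilage tumour. The genes are SOX9, SOX5, SOX6, ACAN, COL2A1, COL10A1, COL11A1, HAPLN1, COMP and RUNX2, and all 10 were found by symbol among the 19389 gene rows of the expression table. RNA had been sequenced from 9 libraries in 3 groups of 3. Untreated cells received neither agent. The IL-1β group was exposed for 20 h to interleukin-1β (20 ng/mL), a cytokine of joint inflammation. The PBSL group received PBSL, a preparation of Protaetia brevitarsis seulensis beetle larvae, for 2 h and then the same IL-1β exposure, and no group received PBSL alone. The protocol lists PBSL at 0, 50, 100 and 200 µg/mL and does not say which concentration was sequenced. All libraries come from 1 cell line, and nothing in the labels says that the libraries of a group were separate cultures, so p-values measure the spread between these libraries only.

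Chondrocytes build a matrix of type II collagen fibrils, with type XI collagen inside them, and of aggrecan, a large proteoglycan that link protein (HAPLN1) ties to hyaluronan. SOX9, helped by SOX5 and SOX6, switches on the genes for these components. RUNX2 drives the later, hypertrophic state, which type X collagen (COL10A1) marks, and IL-1β is known for lowering matrix synthesis in cartilage.

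The deposited values are normalized and are not counts. They summed to between 523758 and 553196 per library, and between 11562 and 11727 genes had a value of at least 1. The smallest value above 0 that a gene took fell with the length of its transcript, with a median of 0.039 for transcripts of 1000 to 2000 bases and 0.011 for those of 4000 to 8000, so the values are treated as levels per length. The number of reads behind them is unknown. The PBSL libraries varied more than the others, with limma library weights of 0.445 to 0.618 against 0.865 to 2.08, and results that turn on 1 library are given with and without it. In bulk RNA, fewer cells that express a gene and less RNA per cell cannot be told apart. A gene was tested when it reached 1 in at least 3 libraries, which held for 11924 genes. Differences are on the log2 scale after adding 1 to each value, which understates the change of low genes, and a gene is said to have risen or fallen at an adjusted p under 0.05 in limma, adjusted over all 11924 genes.

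The untreated cells showed the chondrocyte label only in part. RUNX2 stood highest at 20.3 ± 1.22 (SD, n = 3 here and below), followed by SOX9 at 12.02 ± 0.680, and the libraries of these genes did not overlap. COL11A1 at 3.57 ± 0.170, COL10A1 at 2.97 ± 1.78 and HAPLN1 at 2.27 ± 0.577 came next, each overlapping its neighbour in this order. ACAN followed at 0.501 ± 0.0503, and SOX5, COMP and SOX6 shared a lower range of 0.172 to 0.330. COL2A1 was close to 0. In all, 4 of the 10 genes, SOX5, SOX6, COL2A1 and COMP, were below 1 in all 9 libraries and were not tested, while the other 6 passed the filter.

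Other cartilage matrix genes were mostly low as well. Of 21 further genes of this kind, all in the table, 16 stayed below 1 in every library and 4 were tested. CHAD, which encodes chondroadherin, was listed at 0 in all 9 libraries, and COL9A1, a type IX collagen chain, was above 0 in 1 library, at 0.013; these genes, and THY1 below, are named after their values were seen. Of 10 chondrocyte markers, 6 were below 1 throughout. Every marker of this list belongs to the set followed here or to the 21 further genes, so it regroups them and adds no gene. The summed level of the list was 15.7 to 17.3 in untreated libraries, most of it SOX9. By contrast, 10 fibroblast-type markers, among them the type I collagen genes, summed to 2200 to 2383, most of it COL1A1 (1209 ± 51.2) and COL1A2 (861 ± 44.5), although THY1, a fibroblast surface marker, was above 0 in 1 library only. Osteoblast markers, a list without the type I collagen genes, summed to between 4.70 and 5.37. The contrast between these sums therefore depends on the list in which the type I collagen genes were placed.

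**Figure D1:**
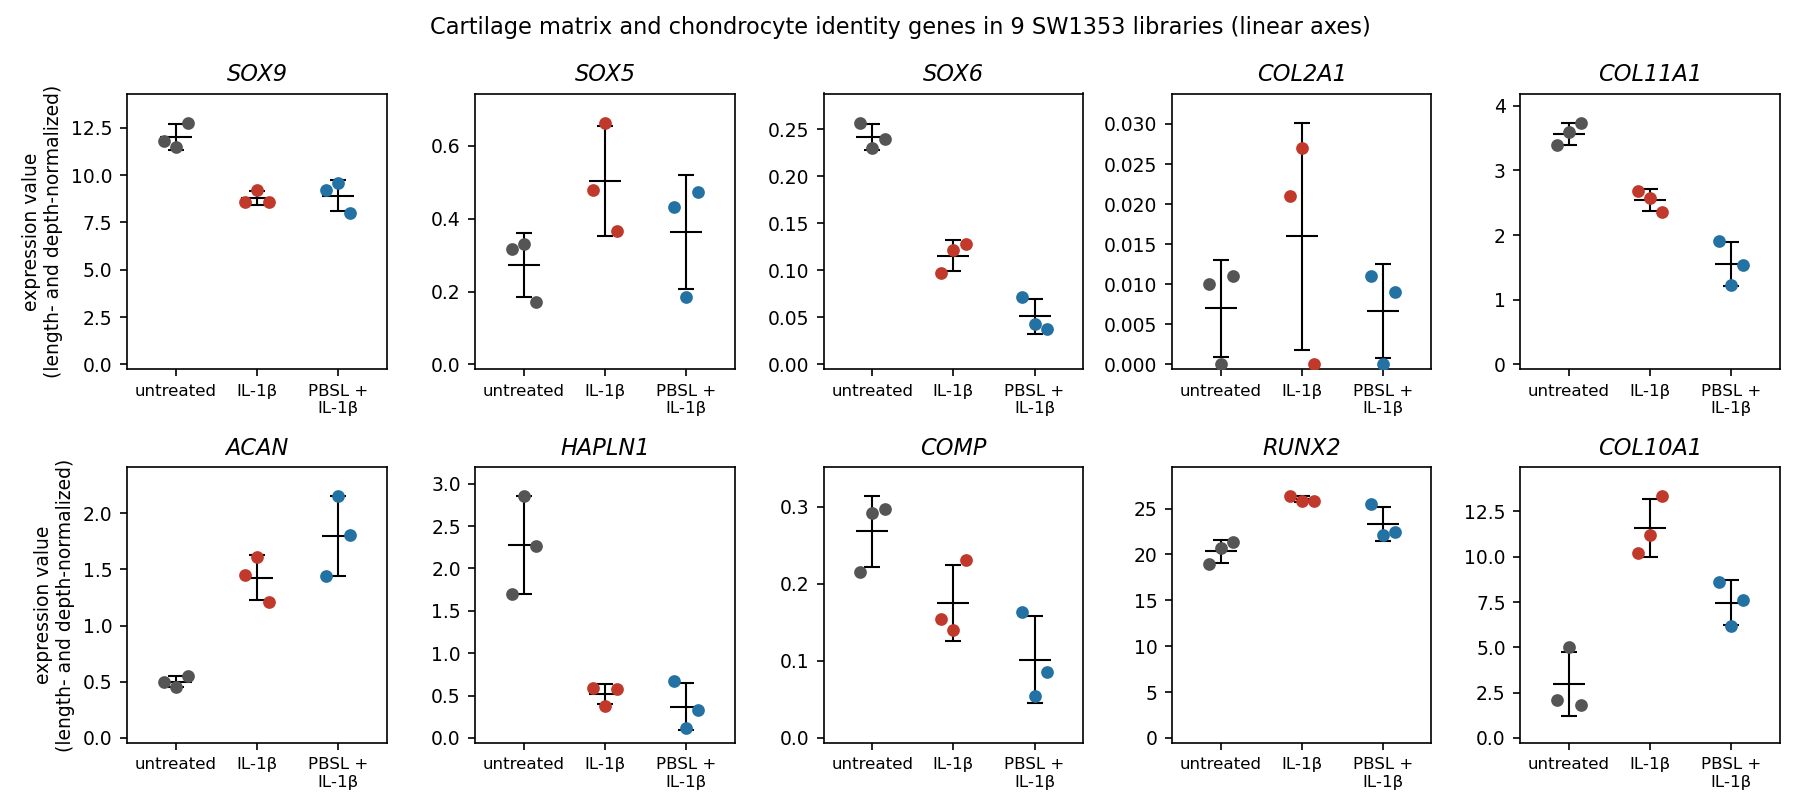
Expression values of the 10 cartilage genes in each of the 9 libraries, with 1 panel per gene and a linear axis. Points are libraries (grey untreated, red IL-1β, blue PBSL and IL-1β) and bars are the group mean ± SD of 3. SOX9, SOX6, COL11A1 and HAPLN1 are lower and SOX5, ACAN, COL10A1 and RUNX2 higher in all 3 IL-1β libraries than in any untreated library.

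IL-1β was followed by opposite changes among these genes. COL10A1, ACAN and RUNX2 rose and HAPLN1, SOX9 and COL11A1 fell, so all 6 tested genes passed the test, 3 in each direction, where 32.1% of all tested genes did, 16.2% higher and 16.0% lower. The groups did not overlap for 8 of the 10 genes, including all 6 tested, where 52.8% of all tested genes did not overlap. The median log2 difference of the 6 tested genes was -0.01, beside 0.00 (-0.0049) for all tested genes. ACAN and HAPLN1 entered the test only through the groups in which they were high, so a difference was built into their entry. With entry by a mean of at least 0.5 over the 9 libraries, ACAN kept adjusted p = 0.000359 and HAPLN1 adjusted p = 0.000246 in limma. HAPLN1 still leaned on its untreated libraries for that entry, with means of 2.27 untreated, 0.518 with IL-1β and 0.369 with PBSL. Without any filter on low values, adjusted p in limma was 0.00113 for ACAN and 0.00150 for HAPLN1.

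SOX9, on chromosome 17 (hg38, 72121020 to 72126420), was 11.807, 11.473 and 12.781 in untreated libraries and 8.604, 9.232 and 8.576 with IL-1β. Every IL-1β library lay below every untreated one. The mean went from 12.02 ± 0.680 to 8.80 ± 0.371, a log2 difference of -0.41 (SE 0.07, limma adjusted p = 0.00114), or 0.732 times the untreated mean.

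The partners of SOX9 were at much lower levels. SOX6, on chromosome 11 (15966449 to 16739591), read 0.257, 0.230 and 0.239 in untreated libraries and 0.097, 0.122 and 0.128 with IL-1β, without overlap, a ratio of means of 0.478. SOX5, on chromosome 12 (23529500 to 24562544), read 0.316, 0.330 and 0.172 in untreated libraries and 0.478, 0.664 and 0.366 with IL-1β, also without overlap but in the other direction, with a ratio of 1.84. Neither entered the test. Without any filter on low values, limma gave adjusted p = 0.00185 for SOX6 and 0.130 for SOX5. SOX9 stood at 45.9 to 53.5 times the level of SOX6 in untreated cells, and IL-1β libraries had ratios of 67.0 to 88.7. Exons of SOX6 share 219 bases with C11orf58 on the opposite strand, which was far higher at 76.8 ± 4.59 untreated and 76.2 ± 1.81 with IL-1β, and whether reads were counted by strand is not stated.

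Among the fibril collagens, COL2A1, the defining collagen of cartilage on chromosome 12 (47972965 to 48004554), was 0.010, 0 and 0.011 in untreated libraries, 0.021, 0.027 and 0 with IL-1β and 0.011, 0 and 0.009 with PBSL. The groups overlapped. Values of 0.009 to 0.011 lie at the median smallest value above 0 for transcripts of 4000 to 8000 bases, 0.011, and the highest values, 0.021 and 0.027, were in 2 IL-1β libraries while the other was at 0. No difference was detectable at this level. COL11A1, the α1 chain of type XI collagen on chromosome 1 (102876467 to 103108872), was 3.394, 3.589 and 3.733 in untreated libraries and 2.687, 2.580 and 2.352 with IL-1β. The groups did not overlap, and the log2 difference was -0.37 (SE 0.10, limma adjusted p = 0.0121). Leaving out IL-1β 3 ended this call, and adjusted p in limma ranged from 0.00208 to 0.0536 over 17 alternatives, the highest being the one without that library. Of 4 other tested fibril collagens of types V, XI and XXVII, only COL5A3, a type V chain, changed with IL-1β, rising from 3.61 ± 0.263 to 7.12 ± 0.0282.

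The proteoglycan and its link protein moved apart. ACAN, on chromosome 15 (88803442 to 88875354), was 0.494, 0.454 and 0.554 in untreated libraries and 1.454, 1.609 and 1.211 with IL-1β. All IL-1β libraries exceeded all untreated ones. The ratio of means was 2.85, and the log2 difference was 0.69 (SE 0.11, limma adjusted p = 0.000348), or 1.34 with 0.1 added in place of 1. HAPLN1, on chromosome 5 (83637805 to 83721613), was 1.701, 2.855 and 2.268 in untreated libraries and 0.595, 0.377 and 0.582 with IL-1β. The IL-1β mean was 0.228 times the untreated one, the lowest ratio among the 10 genes, with a log2 difference of -1.10 (SE 0.16, limma adjusted p = 0.000213), or -1.93 with 0.1 added. The level of ACAN relative to HAPLN1 was 0.159 to 0.290 in untreated cells, whereas IL-1β libraries had ratios of 2.08 to 4.27.

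COMP, a matrix glycoprotein that binds collagen, on chromosome 19 (18782773 to 18791314), was 0.215, 0.292 and 0.297 untreated and 0.154, 0.140 and 0.231 with IL-1β. The groups overlapped and the gene was below the filter. MIA, a small secreted protein of cartilage and melanoma cells, fell from 5.26 ± 1.46 to 2.80 ± 0.863, and CYTL1, a secreted protein of cartilage, from 3.14 ± 0.377 to 2.30 ± 0.334. These were the 2 of 4 tested genes of the further cartilage matrix list that changed, and none rose. Of all tested genes 16.0% fell and 16.2% rose, and with only 4 genes no direction of the list can be read from this.

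RUNX2 and the collagen of hypertrophic cartilage rose, but the wider list of RUNX2 partners and genes of hypertrophy moved in both directions. Of its 15 tested genes 2 rose and 5 fell, where 16.2% of all tested genes rose and 16.0% fell. SPP1 of that list did not pass (limma adjusted p = 0.723), and IHH, PTH1R and PANX3 were below 1 in all libraries. The genes named here from that list were picked after their values were seen. RUNX2, on chromosome 6 (45328157 to 45664349), was 18.949, 20.684 and 21.312 in untreated libraries and 26.364, 25.871 and 25.855 with IL-1β. The groups did not overlap, and the log2 difference was 0.34 (SE 0.07, limma adjusted p = 0.00170), a ratio of means of 1.28. COL10A1, also on chromosome 6 (116118923 to 116158747), was 2.094, 5.015 and 1.801 in untreated libraries and 10.218, 11.205 and 13.348 with IL-1β. Untreated 2 stood above the other untreated libraries but below all IL-1β libraries. The difference was 1.75 (SE 0.23, limma adjusted p = 0.000119), the largest rise among the 6 tested genes, and 2.09 without untreated 2. COL10A1 lies within NT5DC1, which runs on the opposite strand and shares no exon bases with it. SUPT3H likewise runs opposite to RUNX2 with no shared exon bases, at 3.51 ± 0.873 untreated and 5.22 ± 1.03 with IL-1β, and did not pass the test. NT5DC1 did not pass the test, at 9.30 ± 1.11 untreated and 7.64 ± 1.18 with IL-1β.

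**Figure D2:**
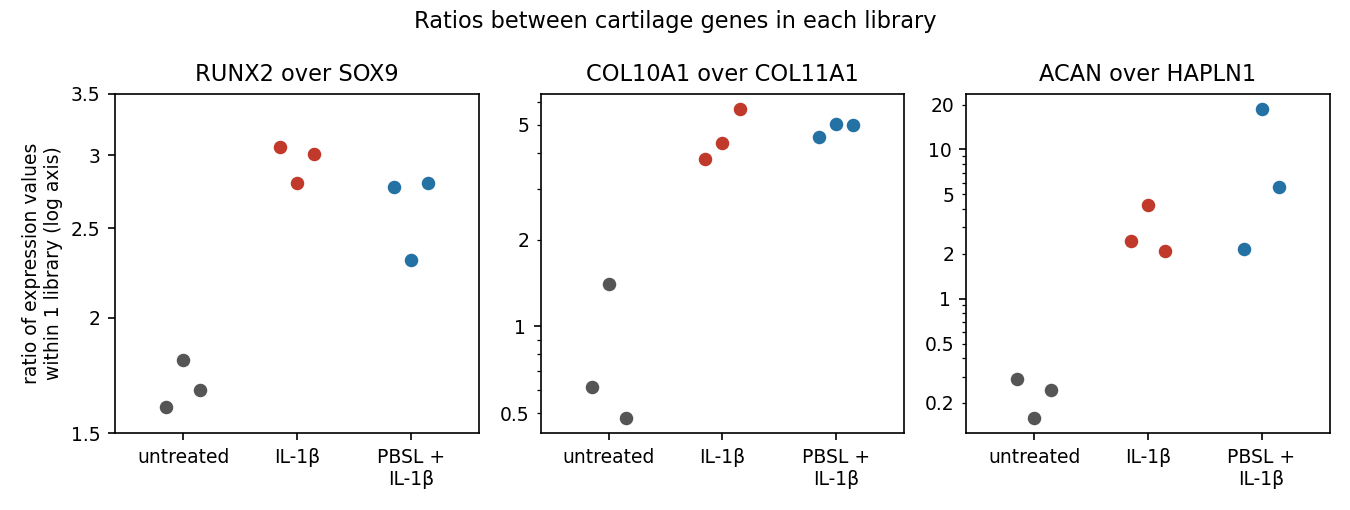
Ratios of expression values within each library for RUNX2 over SOX9, COL10A1 over COL11A1 and ACAN over HAPLN1, on log axes, with 1 point per library. Untreated libraries lie at 1.60 to 1.80, 0.482 to 1.40 and 0.159 to 0.290 in this order, below all libraries given IL-1β, with or without PBSL. Each ratio sets a gene that was higher in all of those libraries over one that was lower. The separation therefore follows from the single genes and is no further evidence.

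Start-site windows of the 3 genes that rose with IL-1β are shown so that known recognition sequences in them can be seen. RefSeq windows of 300 bases on GRCh38.p14 were at hand for 8 of the 10 genes, as 15 windows. Their starts need not be those of the GENCODE 29 positions given above, within which the COL11A1 and HAPLN1 windows lie. Both strands were searched for TGANTCA (AP-1), TGTGGT (RUNX factors), ACAATG (SOX factors) and the κB consensus of NF-κB, a choice of motifs and windows made with the sequences in view. Capitals mark matches, no motifs overlap in the windows shown, and each sequence reads 5′ to 3′ on the strand of its gene.
RUNX2 distal start, chr6:45328080-45328379, plus strand: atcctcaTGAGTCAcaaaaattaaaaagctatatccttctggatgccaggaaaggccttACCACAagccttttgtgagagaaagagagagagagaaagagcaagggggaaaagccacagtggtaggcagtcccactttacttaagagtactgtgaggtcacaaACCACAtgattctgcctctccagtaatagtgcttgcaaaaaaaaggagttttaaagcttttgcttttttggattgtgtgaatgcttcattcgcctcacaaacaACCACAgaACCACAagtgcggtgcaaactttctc
COL10A1, second listed start, chr6:116158723-116159022, minus strand: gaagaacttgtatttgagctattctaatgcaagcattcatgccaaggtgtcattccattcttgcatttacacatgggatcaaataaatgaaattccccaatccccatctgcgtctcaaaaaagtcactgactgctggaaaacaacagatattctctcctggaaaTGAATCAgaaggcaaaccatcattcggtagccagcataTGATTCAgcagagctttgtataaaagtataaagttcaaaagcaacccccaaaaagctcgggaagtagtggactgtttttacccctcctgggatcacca
ACAN, chr15:88803186-88803485, plus strand: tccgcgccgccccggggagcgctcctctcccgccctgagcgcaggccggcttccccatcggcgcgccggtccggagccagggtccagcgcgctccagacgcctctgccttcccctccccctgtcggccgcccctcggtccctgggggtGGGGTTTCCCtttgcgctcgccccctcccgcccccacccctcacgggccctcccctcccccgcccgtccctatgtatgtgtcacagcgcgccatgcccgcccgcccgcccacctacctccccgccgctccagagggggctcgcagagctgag
The RUNX2 window held 1 AP-1 match and 4 RUNX matches, the COL10A1 window 2 AP-1 matches and the ACAN window 1 κB match. Among 35116 windows of the same length, 7.71% held an AP-1 match (0.515% held at least 2), 13.1% a RUNX match (0.0142% held at least 4), 10.8% a SOX match and 5.91% a κB match. These shares are for 1 window and 1 motif, with cut-offs set to the counts seen. The windows shown were picked from 15 over 4 motifs, so their counts look rarer beside these shares than they are. Such matches were not confined to genes that rose or to every start of a gene. The other listed start of RUNX2 held none of the 4 motifs, and of the other listed starts of COL10A1 one held none and one a SOX match. The single windows of HAPLN1 and COL11A1, which fell, held none, whereas the first listed start of SOX6, lower in all IL-1β libraries, held 1 AP-1 match and the COMP window 1 κB and 1 RUNX match. A match is a string of letters and was not tested as a binding site.

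Genes around the cartilage regulators moved in both directions, and their counts stand beside 32.1% of all tested genes called. Of 18 partners and regulators of SOX9, 15 were tested, 2 rose and 1 fell with IL-1β, with a median log2 difference of -0.06. HIF1A, the hypoxia-inducible transcription factor subunit, rose from 274 ± 10.9 to 355 ± 5.03, and ARID5A, an RNA-binding and SOX9-cooperating protein, from 3.83 ± 0.350 to 5.03 ± 0.203. NKX3-2, a repressor of RUNX2, fell from 2.37 ± 0.423 to 1.65 ± 0.188. Of 21 partners of RUNX2 and genes of hypertrophy, 15 were tested, 2 rose and 5 fell, with a median of -0.03. DLX5, a homeobox factor of skeletal development, fell from 17.3 ± 0.669 to 10.2 ± 0.464, its neighbour DLX6 from 7.05 ± 0.345 to 4.54 ± 0.206 and WWTR1, the Hippo pathway co-activator TAZ, from 29.8 ± 2.09 to 17.0 ± 0.367.

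The enzymes that make chondroitin sulfate, the sugar chains carried by aggrecan and other proteoglycans, were broadly expressed. Of 26 listed, 25 were in the table and 22 were tested, of which 9 rose and 2 fell with IL-1β, with a median log2 difference of 0.17, beside 16.2% of all tested genes higher and 16.0% lower. CSGALNACT1, which starts and extends the chains, rose from 2.51 ± 0.105 to 5.87 ± 0.491 (log2 difference 0.96, limma adjusted p = 4.13e-06). CHST11, which sulfates them, rose from 9.11 ± 0.0946 to 15.6 ± 0.563, and the sulfotransferase CHST15 from 2.37 ± 0.292 to 4.25 ± 0.530. DSE, an epimerase that converts chondroitin to dermatan sulfate, rose from 17.8 ± 0.0788 to 28.5 ± 0.966. These enzymes serve proteoglycans other than aggrecan as well.

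**Figure D3:**
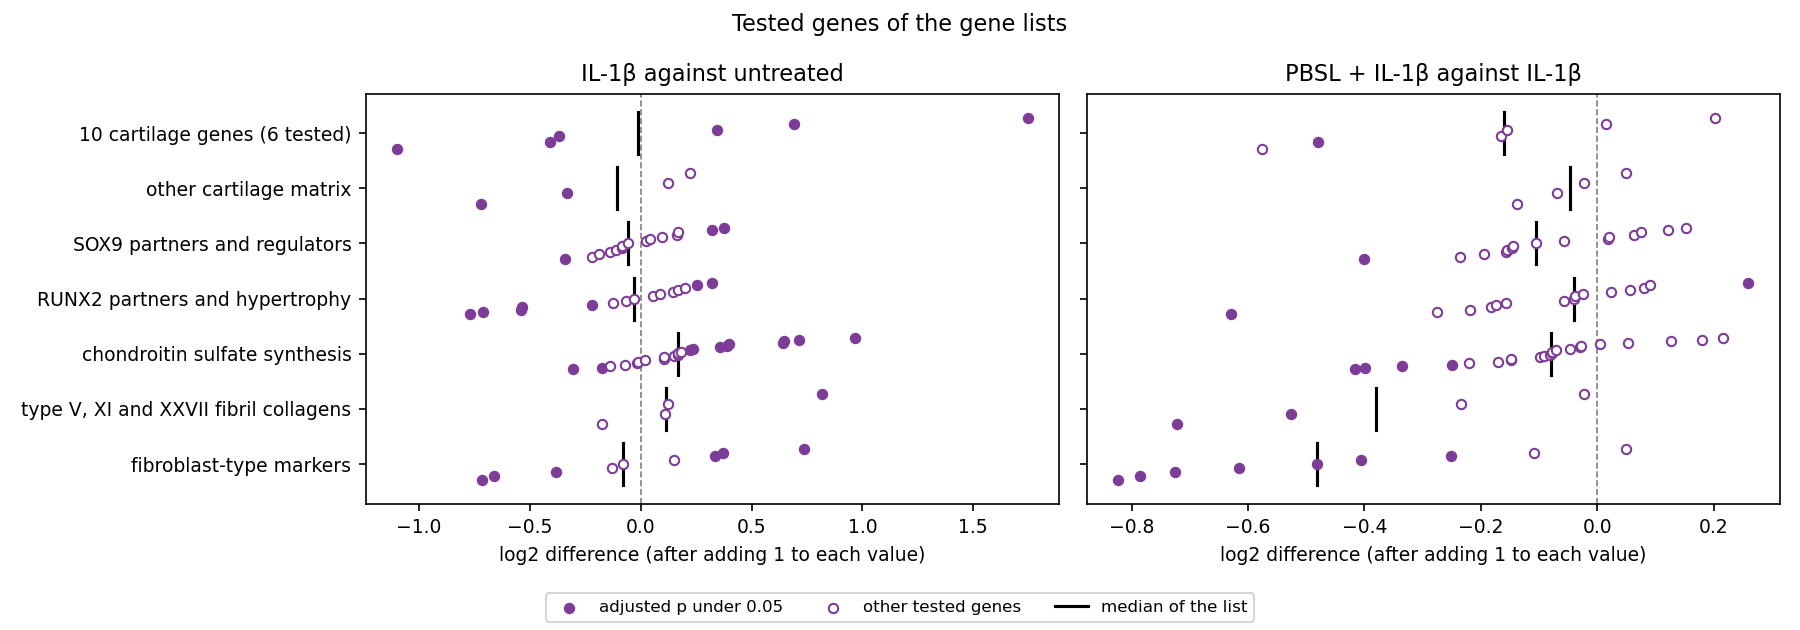
Log2 differences (after adding 1) of every tested gene in 7 lists, for IL-1β against untreated cells (left) and PBSL with IL-1β against IL-1β (right); filled points have an adjusted p under 0.05 and black bars are list medians. The chondroitin sulfate list has its median at 0.17 on the left, and the fibroblast-type list at -0.48 on the right.

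With PBSL before IL-1β, COL11A1 alone among the 6 tested genes changed, where 22.5% of all tested genes did (11.0% lower). It was 1.902, 1.221 and 1.531 with PBSL, below all 3 IL-1β libraries (2.352 to 2.687). The mean went from 2.54 ± 0.171 to 1.55 ± 0.341, a log2 difference of -0.48 (SE 0.10, limma adjusted p = 0.00697). Adjusted p stayed between 0.000756 and 0.0321 over the 17 alternatives. The median difference of the 6 genes was -0.16, beside 0.01 (0.00794) for all tested genes.

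Other collagen and matrix genes were lower with PBSL at the same time. COL5A1, whose type V chain assembles with type XI chains, fell from 183 ± 2.21 to 112 ± 21.7 and COL5A3 from 7.12 ± 0.0282 to 4.68 ± 0.814, the 2 of 4 tested genes of that list that changed. Of 9 tested fibroblast-type markers 7 fell and none rose, with a median of -0.48, and the summed level of the 10 listed, again mostly the type I collagen genes, was 2623 to 2674 with IL-1β and 1450 to 1977 with PBSL. COL1A1 fell from 1563 ± 15.1 to 956 ± 186 and COL1A2 from 787 ± 8.56 to 462 ± 92.1, which are the type I collagen chains. THY1 was listed at 0 in all 6 libraries of this comparison. The part of these markers in the COL11A1 difference was not tested.

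For the remaining 5 tested genes the difference between PBSL and IL-1β alone did not pass. SOX9 was 9.192, 9.566 and 8.003 with PBSL, within and around the IL-1β range of 8.576 to 9.232. Its log2 difference was 0.01 (95% confidence interval -0.15 to 0.17, limma adjusted p = 0.914). A full reversal of the fall seen with IL-1β (-0.41) would lie above that interval. HAPLN1 was 0.668, 0.115 and 0.324 with PBSL, spread on both sides of the IL-1β libraries, with an interval of -0.51 to 0.18 (adjusted p = 0.477, limma).

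COL10A1, RUNX2 and ACAN lay nearer the threshold. COL10A1 was 8.610, 6.157 and 7.621 with PBSL, below all IL-1β libraries (10.218 to 13.348) and above all untreated ones. Its difference of -0.58 had a confidence interval of -1.08 to -0.07 and limma adjusted p = 0.0935, and the groups did not overlap, as for 41.8% of all tested genes. It passed without untreated 2 (adjusted p = 0.0118, limma) and in a fit of these groups alone (adjusted p = 0.0169), while the alternatives spanned 0.0118 to 0.264. RUNX2 was 25.449, 22.122 and 22.434 with PBSL, also below all IL-1β libraries, with a difference of -0.15 (limma adjusted p = 0.111). ACAN was 1.442, 2.149 and 1.806, overlapping IL-1β, with a difference of 0.20 (limma adjusted p = 0.186). PBSL 1 lay nearest the IL-1β libraries for RUNX2. Without it RUNX2 fell by 0.22 (adjusted p = 0.0185, limma, with alternatives spanning 0.0185 to 0.272). ACAN then rose by 0.30 (adjusted p = 0.0436, limma, with alternatives spanning 0.0436 to 0.498). Leaving out PBSL 1 also raised the calls over all genes from 2684 to 3910, so such gains were not particular to these genes.

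Of the 4 genes below the filter, SOX6 read 0.072, 0.043 and 0.038 with PBSL, below all IL-1β libraries (0.097 to 0.128), a ratio of means of 0.441. Without a filter its adjusted p in limma was 0.0523. SOX5 read 0.433, 0.184 and 0.472 and COMP 0.164, 0.055 and 0.086 with PBSL, both overlapping IL-1β alone, with ratios of 0.722 and 0.581.

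**Figure D4:**
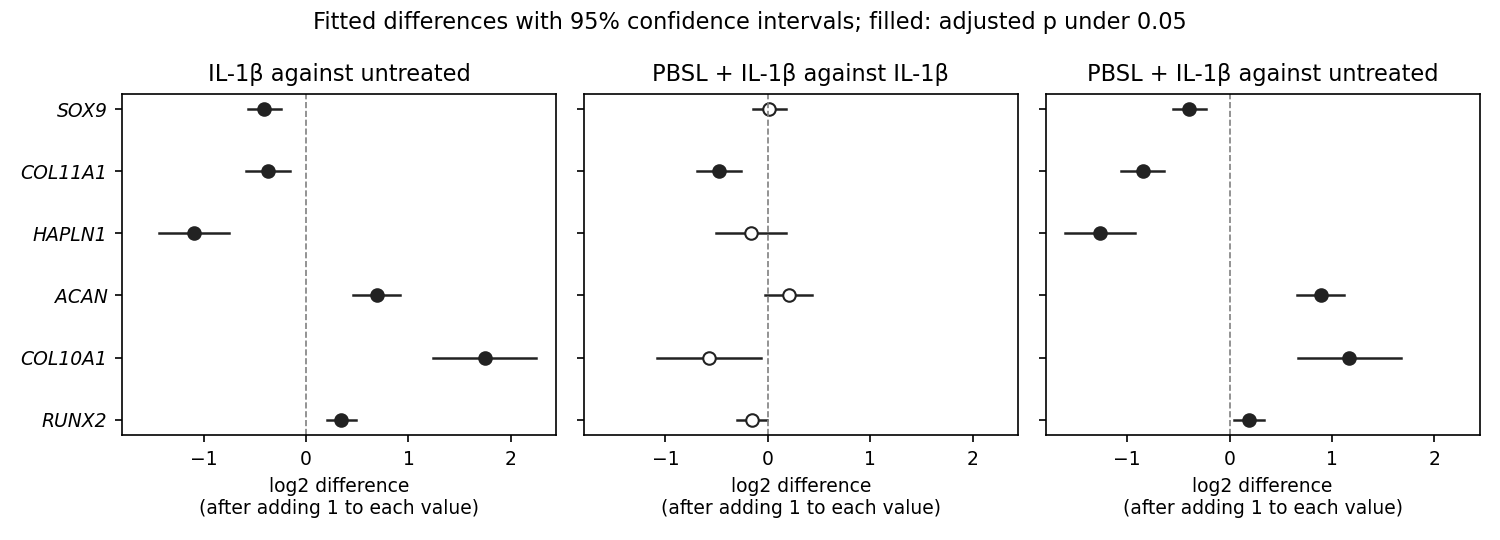
Log2 differences (after adding 1) of the 6 tested cartilage genes in the 3 comparisons, with 95% confidence intervals from the shared limma model and filled points at an adjusted p under 0.05. All 6 pass against untreated cells, and COL11A1 alone passes in PBSL against IL-1β.

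For the lists around these genes, the PBSL counts stand beside 22.5% of all tested genes called, 11.5% higher and 11.0% lower. Of the 15 tested SOX9 partners only ARID5B, a cofactor of SOX9, changed, falling from 14.7 ± 0.260 to 10.9 ± 1.44. Of the 15 tested RUNX2 and hypertrophy genes, CBFB, the subunit that RUNX proteins bind DNA with, rose from 22.4 ± 0.979 to 27.2 ± 2.98, and DLX5 fell from 10.2 ± 0.464 to 6.24 ± 0.808. The medians of both lists were -0.11 and -0.04. None of the 4 tested genes of the further cartilage matrix list changed in limma, and 0 of the 4 had an unadjusted p under 0.05. Of 22 chondroitin sulfate enzymes 4 fell and none rose, among them CSGALNACT1, from 5.87 ± 0.491 to 4.15 ± 0.484, CHST15, from 4.25 ± 0.530 to 2.97 ± 0.171, and CHPF, a chain-polymerizing factor, from 92.6 ± 3.27 to 73.7 ± 10.9.

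Set against untreated cells, the PBSL group differed in all 6 tested genes, 3 higher and 3 lower, where 41.6% of all tested genes passed (22.3% higher and 19.3% lower). The groups did not overlap for 8 of the 10 genes, including all 6 tested, where 48.2% of all tested genes did not overlap. This comparison shares its untreated libraries with the one for IL-1β alone, so both are given side by side. ACAN differed by 0.89 with PBSL and 0.69 with IL-1β alone, COL10A1 by 1.17 and 1.75, and RUNX2 by 0.19 and 0.34. HAPLN1 differed by -1.26 and -1.10, COL11A1 by -0.85 and -0.37, and SOX9 by -0.39 and -0.41. The limma adjusted p with PBSL ran from 3.43e-05 for COL11A1 to 0.0360 for RUNX2. The RUNX2 call was lost in 9 of 17 alternatives, up to limma adjusted p = 0.139 without untreated 1. It was also lost without untreated 2, any 1 of the IL-1β libraries or PBSL 1. HAPLN1 entered the test only through its untreated libraries, and ACAN only through libraries given IL-1β, with or without PBSL. A difference from untreated cells was thus built into the entry of both. Without any filter on low values, adjusted p in limma was 0.000251 for ACAN and 0.000639 for HAPLN1. With 0.1 added in place of 1, the difference was 1.65 for ACAN and -2.50 for HAPLN1.

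SOX6 and COMP were lower in every PBSL library than in any untreated one, with ratios of means of 0.211 and 0.379. In the fit without a filter their adjusted p in limma was 0.000145 and 0.0115. Both genes were below 1 in all libraries. Judged roughly from the smallest values above 0, 1 read would be worth about 0.0062 for SOX6 and 0.02 for COMP. Their PBSL values were 0.038 to 0.072 and 0.055 to 0.164, so few reads may lie behind these differences. The order of levels also differed by group. COL10A1 had rank 4 of 10 in untreated cells, rank 2 with IL-1β, above SOX9, and rank 3 with PBSL, where its libraries overlapped those of SOX9. ACAN had rank 6, 5 and 4 in the same order, and with PBSL its libraries overlapped those of COL11A1.

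For each tested gene, the 2 genes outside the list with the most similar profile were found by Pearson's r of log2 values over the 9 libraries, which share their groups. SOX9 was most like ARF5 (r = 0.995) and PDLIM2 (0.984). ARF5, a small GTPase of membrane traffic, went from 170 ± 8.9 to 126 ± 3.95 with IL-1β and stood at 126 ± 7.95 with PBSL. COL11A1 was most like PRSS23, a serine protease (0.994), and MYLK, the myosin light chain kinase (0.994). HAPLN1 was most like USP30 (0.989) and ITGA10 (0.987), the latter a collagen-binding integrin subunit of chondrocytes that went from 9.14 ± 0.755 to 5.73 ± 0.302 and 5.32 ± 0.392 in the same order. ACAN was most like RAB29 (0.988) and ELOA (0.987), COL10A1 most like DUSP8 (0.974) and INO80 (0.970), and RUNX2 most like JARID2 (0.990) and TMEM140 (0.983). These values are a description of 9 libraries.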

How the data were processed

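RNA of 9 SW1353 libraries was sequenced from directional mRNA libraries, per the labels' protocols. Per the submitters' processing notes, Trim Galore, STAR, HTSeq and the build hg38 were used; versions are not given in the sources used here. The signal values were deposited by the authors as 1 normalized value per gene and library, with 3 decimals; the unit, the strand setting and the treatment of shared reads are not stated. They are not counts, so no count model was run.

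Here limma 3.58.1 (R 4.3.3) was fitted with a variance trend to log2(value + 1) of all 9 libraries, with a mean per group, 6 residual degrees of freedom and no block, for genes of at least 1 in at least 3 libraries. Tests were 2-sided, with Benjamini-Hochberg adjustment over 11924 genes. An exact permutation of 3 against 3 cannot go below p = 0.1 and was not used. The 10 genes and the gene lists were chosen with earlier results of these data known. All 10 genes are described; of each other list, up to 3 called genes with the smallest p per comparison were named, and 2 most similar genes per tested gene. Genes named outside this rule are said to be. Of the lists, 2 symbols did not match (1 each of the chondroitin sulfate and osteoblast lists). Adipocyte and muscle markers, with 2 of 8 tested, served as a further marker list: PPARG and DES fell with IL-1β, and DES with PBSL. Of 3 tested osteoblast markers, 0 changed with PBSL against IL-1β in limma (0 at an unadjusted p under 0.05); their result for IL-1β against untreated cells is not reported here. Positions are from GENCODE 29. The procedure was tested on simulated data with 200 changed genes per comparison. It recovered 79% to 86% of differences of 0.5 on the log2 scale and 99% to 100% of those of 1. Unchanged genes made up 4.3% to 7.46% of the calls. Smaller differences were not simulated, and spreads were dealt to genes at random, so they did not follow the level of a gene. Alternatives were other pseudocounts (0.1 and 0.5), filters, median-ratio rescaling, a replicate block, a fit of 2 groups, library weights and leaving out each library. Tables used Python 3.11.15 and pandas 2.3.3, figures matplotlib 3.10.9.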

Additional observations from a re-analysis of the deposited data

How the results depend on the processing

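Of 297 recomputed differences of the 6 tested genes, 279 kept their direction and side of the threshold, 10 lost and 4 gained a call, and 4 changed sign. The sign changes were all of SOX9 in PBSL against IL-1β, which was never called: -0.00018 without IL-1β 1, -0.0023 without IL-1β 3, -0.0068 without PBSL 1 and -0.033 without PBSL 2, up to 0.0827 without PBSL 3. HAPLN1 left the test when any untreated library was left out. Of the 6 genes, 2 passed in PBSL against IL-1β in the fit of the 2 groups alone. Leaving out 1 library gave 5 to 6 of them for IL-1β against untreated, 1 to 3 for PBSL against IL-1β and 4 to 6 for PBSL against untreated cells. Over all genes it gave 2930 to 4273, 1304 to 3910 and 3825 to 5404 calls in the same order, against 3831, 2684 and 4965 with all libraries; for PBSL against IL-1β the calls numbered 1451 (IL-1β 1 left out), 1304 (IL-1β 2), 1355 (IL-1β 3) and 1434 (PBSL 2). The labels do not say whether the replicate numbers pair the libraries. Deviations of same-numbered libraries correlated at -0.225 to 0.0681, none of 9 pairs over 0.1. No sign of pairing was seen, but correlations among so few libraries cannot exclude it. With the numbers as a replicate block, 5 of the 6 genes passed in PBSL against untreated cells, RUNX2 losing its call (adjusted p = 0.0653, limma), and no other call of the 6 changed; over all genes the block gave 3479, 2131 and 4535 calls. Median-ratio rescaling moved the median of all genes by under 0.1. Genes below 1 are limited by depth, which is unknown, and fits on counts were not run because the file holds none.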
